A study of Mus musculus with 4 samples.

Results

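The 10 genes described here are markers of embryonic macrophages, namely Csf1r, C1qa, C1qb, C1qc, Fcer1g, Tyrobp, Aif1, Mrc1, Cx3cr1 and Spi1. They were taken by symbol from a table of 33708 autosomal genes that was made from the frontonasal prominence (FNP), which gives rise to the nose and snout. It compared FNPs of 2 wild-type embryos (WT, Smchd1+/+, 1 female and 1 male per the labels) with those of 2 male embryos homozygous for MommeD43 (MD43, Smchd1MommeD43/MommeD43), a chemically induced missense allele of Smchd1. All 4 embryos were FVB/NJ at E10.5 with 29 somites, both replicate 2 embryos had the same mother, and a column heading elsewhere in the study lists WT replicate 2 as a female. Both MD43 embryos were male, so that sex and genotype cannot be fully told apart. SMCHD1 is a chromatin protein involved in gene silencing, and the 2 genotypes were compared to find genes whose level differs in developing facial tissue when it carries the MD43 change. The authors merged both libraries of a genotype into 1 log2 RPKM value (read density scaled by transcript length and sequencing depth), so that each gene had 1 value per genotype, with no spread between embryos and no replicate check of any difference.

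Macrophages enter the mouse embryo from the yolk sac before bone marrow exists and settle in most tissues, where they clear dying cells and, in the brain, become microglia. Their survival depends on CSF1R, a receptor tyrosine kinase bound by CSF1 and IL-34, and their identity depends on PU.1, the transcription factor encoded by Spi1. TYROBP (DAP12) and FCER1G are small membrane adaptors whose cytoplasmic ITAM motifs pass signals from activating receptors to the kinase SYK. C1QA, C1QB and C1QC are the chains that assemble into C1q, the recognition part of the classical complement pathway. CX3CR1 is the receptor for fractalkine (CX3CL1), MRC1 is the mannose receptor CD206, and AIF1 (IBA1) is an actin-binding protein widely used to stain microglia.

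Reads were recovered from the log2 RPKM values and are given as the geometric mean of both libraries of a genotype. The implied depth was 22328791 reads per library in MD43 and 16055882 in WT, so that equal levels correspond to 1.39 times as many reads in MD43 as in WT. The error given with a log2 difference (MD43 minus WT) is the least standard error possible from the counting of reads, and the interval given is 1.96 times this error on either side. Both cover counting error alone and leave out variation between embryos. Of the 15381 genes with at least 10 reads in 1 genotype or more, this interval lay below 0 for 24.2% and above 0 for 26.2%, so an interval that leaves out 0 was common in this table.

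All 10 markers had reads in both genotypes, but at low levels. Without Csf1r, the markers had between 5.74 and 33.5 reads, and 9 of the 10 markers passed the minimum of 10 reads in a genotype. Aif1 did not. The MD43 value was lower for 8 markers and higher for 2. Of the 8, 3 (Csf1r, C1qa and C1qc) lay within 0.04 of 0. For comparison, 48.8% of all genes past the filter were lower, and 55.8% of those in the read range of the 10 markers. The median log2 difference was -0.11 over all 10 markers and -0.03 over the 9 past the filter. Over all genes past the filter it was 0.0055. The filter takes reads before scaling, so a gene passes more easily through the deeper MD43 libraries. C1qa, C1qc, Fcer1g and Spi1 passed through their MD43 reads alone. Aif1, lower in MD43, failed with 7.35 reads in WT. The median of -0.03 differs from -0.11 only by leaving out Aif1, and is no sign of a smaller difference. No marker differed by 2-fold. Of the filtered genes, 2.48% were at least 2-fold lower in MD43 and 1.64% at least 2-fold higher. In bulk tissue, fewer macrophages and less RNA per macrophage cannot be told apart.

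**Figure D1:**
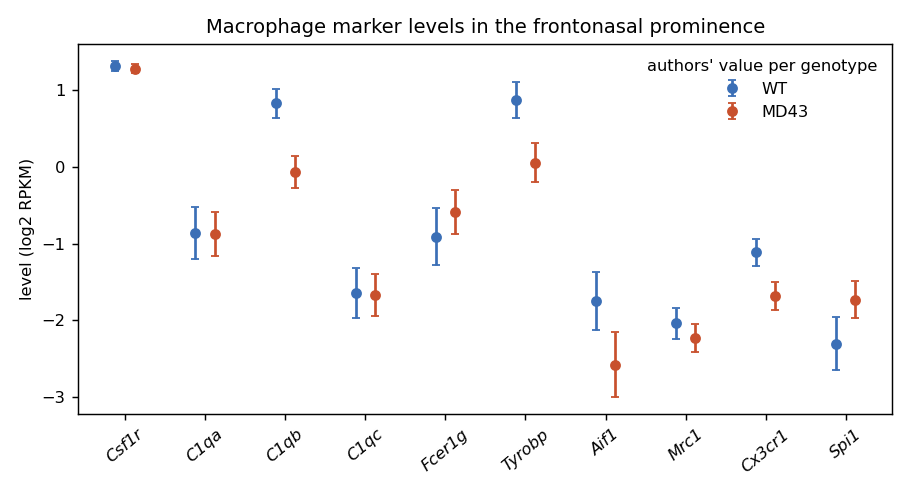
Level of each marker in log2 RPKM in WT (blue) and MD43 (red), 1 value per genotype as deposited, with bars of 1 smallest counting standard error. The listed values of Csf1r were highest, at 1.32 in WT and 1.28 in MD43. Less a rough estimate of the reads placed by the overlapping gene Hmgxb3, Csf1r stood at 0.78 in WT, below Tyrobp and C1qb. The WT points of C1qb, Tyrobp, Aif1 and Cx3cr1 lie above their MD43 points by more than both bars.

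The receptor gene Csf1r (ENSMUSG00000024621, GRCm38 chromosome 18, 61100598 to 61132149, plus strand) was the marker with the most reads. Its level was 1.28 log2 RPKM in MD43 (314 reads) and 1.32 in WT (231 reads). The difference was -0.03 ± 0.09, with an interval of -0.21 to 0.14. This was the narrowest interval of the 10, and it spans 0. Csf1r supplied 65.7% of the reads of all markers in MD43 and 60.3% in WT, so a sum over the markers is largely a measure of this gene.

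The last exon of Csf1r shares 873 bases, 15.1% of its exonic length, with exons of Hmgxb3, a gene on the opposite strand that had 1489 reads in MD43 and 895 in WT. The libraries were stranded, but in most genes where this could be checked the table did not separate reads by strand. The genes checked lie at least 90% inside exons of an opposite gene dense enough to place 100 reads there. Their listed reads were a median 0.988 times the placed reads in MD43 (92 genes) and 1.01 times in WT (75 genes). They were at least 0.5 times for 68.5% and 66.7% of these genes. The ratios spread widely, with lower quartiles of 0.26 and 0.20. For 15 genes in MD43 and 12 in WT the ratio was under 0.1. At an even density Hmgxb3 would place 120 reads on Csf1r in MD43 and 71.9 in WT, or 38.2% and 31.1% of the Csf1r reads. Even density can place too many reads. In MD43, opposite-strand genes would place 76.3 reads on Cebpb, which had 10.1, and 52.1 on Folr2, which had 11.5. The reads placed on Csf1r are therefore a rough estimate. The log2 difference of Hmgxb3 itself was 0.26 ± 0.04. With these reads taken away, Csf1r had 8.69 RPM (reads scaled to library size, without transcript length) in MD43 and 9.90 in WT, a log2 difference of -0.19 ± 0.11. This error treats the reduced reads as if counted directly and is therefore too small. The direction was that of the unadjusted value, and the interval still spans 0. Of the other markers only Cx3cr1 shared exonic bases with another gene, Gm33858, which had no reads.

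**Figure D2:**
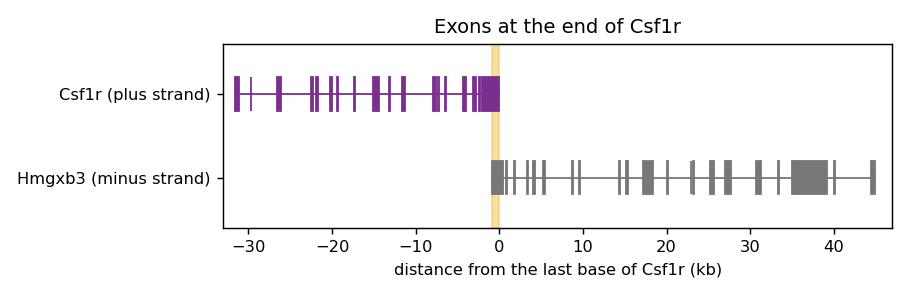
Exons of Csf1r (purple, plus strand) and Hmgxb3 (grey, minus strand) in GENCODE M21, drawn to scale by distance in kb from the last base of Csf1r. The shaded stretch of 873 bases at 0 is exonic in both genes, and reads there can be counted for either.

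The ligands of the receptors were read beside them. Csf1 had 0.19 log2 RPKM in MD43 (134 reads) and 0.41 in WT (113 reads), a difference of -0.23 ± 0.13. Cx3cl1, which encodes the ligand of CX3CR1, had 1.03 in MD43 and 1.29 in WT, a difference of -0.26 ± 0.11. Il34 had no reads in any library. Thus of both CSF1R ligands Csf1 alone was detected in this tissue.

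Cx3cr1 (ENSMUSG00000052336, chromosome 9, 119901616 to 120069879, minus strand) was lower in MD43. Its level was -1.68 log2 RPKM in MD43 (31.4 reads) and -1.11 in WT (33.5 reads). The difference was -0.57 ± 0.25, a 1.48-fold lower level, with an interval of -1.07 to -0.07. The raw reads of the genotypes were nearly equal, and the difference comes from scaling to the greater depth of MD43.

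The mannose receptor gene Mrc1 (ENSMUSG00000026712, chromosome 2, 14229392 to 14332057, plus strand) had -2.23 log2 RPKM in MD43 (30.3 reads) and -2.04 in WT (24.9 reads). Its difference of -0.19 ± 0.28 was smaller than its counting error.

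The adaptor genes had differences of opposite sign. Tyrobp (ENSMUSG00000030579, chromosome 7, 30413760 to 30417585, plus strand) had 0.06 log2 RPKM in MD43 (15.5 reads) and 0.87 in WT (19.6 reads). Its difference was -0.81 ± 0.35, 1.76-fold lower in MD43, with an interval of -1.49 to -0.14. Fcer1g (ENSMUSG00000058715, chromosome 1, 171229572 to 171234365, minus strand) had -0.59 in MD43 (13 reads) and -0.91 in WT (7.48 reads), a difference of 0.32 ± 0.47. The difference between both differences was -1.14 ± 0.58, and its interval of -2.28 to 0.0060 just spans 0. In level, Tyrobp was 3.43 times Fcer1g per length in WT and 1.56 times in MD43.

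The kinase gene Syk, which acts below both adaptors, had 115 reads in MD43 against 93.2 in WT, with a log2 difference of -0.17 ± 0.14. Of 10 genes of receptors and kinases that work with the adaptors, 2 passed the filter, with a median of -0.34. Below the filter, Trem2, whose receptor signals through TYROBP, had 4.24 reads in MD43 against 2.68 in WT, and in WT these came from 1 library with 8 reads and 1 without. Fcgr3, an Fc receptor gene whose product signals through FCER1G, had 3.74 and 8.83 reads, with a difference of -1.71 ± 0.63.

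The C1q genes lie side by side within 18675 bases of chromosome 4, all on the minus strand, with 3616 bases between C1qb and C1qc and 2851 between C1qc and C1qa. C1qb (ENSMUSG00000036905, 136880129 to 136886187) had -0.06 log2 RPKM in MD43 (23.2 reads) and 0.83 in WT (31.0 reads). Its difference of -0.89 ± 0.28, with an interval of -1.44 to -0.34, was the largest of the 10 markers and amounted to a 1.85-fold lower level in MD43.

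C1qa (ENSMUSG00000036887, 136895917 to 136898803) had -0.88 log2 RPKM in MD43 (12.6 reads) and -0.86 in WT (9.22 reads), a difference of -0.02 ± 0.44. C1qc (ENSMUSG00000036896, 136889804 to 136893065) had -1.67 in MD43 (13.6 reads) and -1.65 in WT (9.90 reads), a difference of -0.02 ± 0.43. Their levels were therefore nearly equal between the genotypes, whereas those of C1qb were not. The difference of C1qb minus that of C1qa was -0.87 ± 0.52, with an interval of -1.90 to 0.15, and minus that of C1qc it was -0.87 ± 0.51, with an interval of -1.87 to 0.13. Counting error alone thus spans equal differences of the 3 chains.

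Per length, C1qb was the most abundant chain in both genotypes. It was 3.21 times C1qa and 5.55 times C1qc in WT, and 1.76 and 3.04 times in MD43. Summed, the 3 chains had 2.21 RPM in MD43 and 3.12 in WT, a log2 difference of -0.49 ± 0.20. Of the other complement genes listed, C2 and C3ar1 passed the filter, with differences of 0.37 ± 0.10 and -0.25 ± 0.45. C2 overlaps the opposite-strand gene Zbtb12, whose density would place 70.9% of its reads in MD43 and 84.6% in WT, and Gm20547 on its own strand.

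The upstream sequence of C1qb and C1qc is shown because they are neighbours whose products join in C1q, and they had the lowest difference of the 10 markers and one near 0. Both are on the gene strand, from RefSeq on GRCm38.p6, and capitals mark an exact match to a PU.1 core motif, GAGGAAGT, which in C1qc stands as its reverse complement ACTTCCTC.
C1qb, chr4:136886201-136886450, minus strand: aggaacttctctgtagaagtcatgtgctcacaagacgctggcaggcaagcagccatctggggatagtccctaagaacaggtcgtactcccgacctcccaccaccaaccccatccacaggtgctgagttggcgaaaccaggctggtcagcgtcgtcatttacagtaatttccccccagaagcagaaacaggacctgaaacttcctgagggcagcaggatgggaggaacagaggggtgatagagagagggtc
C1qc, chr4:136893066-136893164, minus strand: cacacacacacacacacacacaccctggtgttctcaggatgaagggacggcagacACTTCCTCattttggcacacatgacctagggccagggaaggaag
The C1qb stretch is the 250 bases before its RefSeq start. The C1qc stretch is the 99 bases farthest from its RefSeq start, ending 152 bases before it, since bases nearer to it belong to the gene in GENCODE M21. The match lay 195 to 188 bases before the RefSeq start of C1qc. The search covered both strands of windows from 250 bases before to 50 after each start. Windows were given for 6 markers (C1qb, C1qc, Fcer1g, Mrc1, Cx3cr1 and Aif1), and C1qc was the 1 with a match, against 3.20% of 32851 windows of all genes. The C1qb stretch holds acttcctg, which differs from ACTTCCTC in the last base alone and is no exact match. A match is a string of letters and was not tested as a binding site, and the lack of an exact match was not tested either.

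Spi1, the gene of PU.1 (ENSMUSG00000002111, chromosome 2, 91082390 to 91115756, plus strand), had the largest difference upwards. Its level was -1.73 log2 RPKM in MD43 (18.2 reads) and -2.30 in WT (8.77 reads), a difference of 0.57 ± 0.42 with an interval of -0.25 to 1.40. Spi1 ranked 8 of 10 in level in MD43 and 10 of 10 in WT. Its difference and that of C1qb were 1.46 ± 0.50 apart, with an interval of 0.48 to 2.45.

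Of 8 further transcription factors of blood and myeloid cells, all past the filter, 4 were lower in MD43 and 4 higher, with a median of 0.0036. Runx1, which is needed for definitive blood stem cells, had 157 reads in MD43 against 88.0 in WT, with a difference of 0.36 ± 0.14. Myb, a factor of blood progenitors that yolk sac macrophages do not need, had a difference of 0.32 ± 0.11. Maf, a bZIP factor of tissue macrophages, had 216 reads in MD43 against 211 in WT, with a difference of -0.44 ± 0.10. Cebpb had 10.1 reads in MD43 against 27.9 in WT, a difference of -1.94 ± 0.37, but it overlaps the opposite-strand gene Tmem189, which at even density would account for more reads than Cebpb had.

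Aif1 (ENSMUSG00000024397, chromosome 17, 35170991 to 35176068, minus strand) was the least abundant marker in MD43. Its level was -2.57 log2 RPKM in MD43 (5.74 reads) and -1.74 in WT (7.35 reads). The difference of -0.83 ± 0.57 had the widest interval, -1.94 to 0.28. At so few reads a difference of this size was not detectable beyond counting error.

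**Figure D3:**
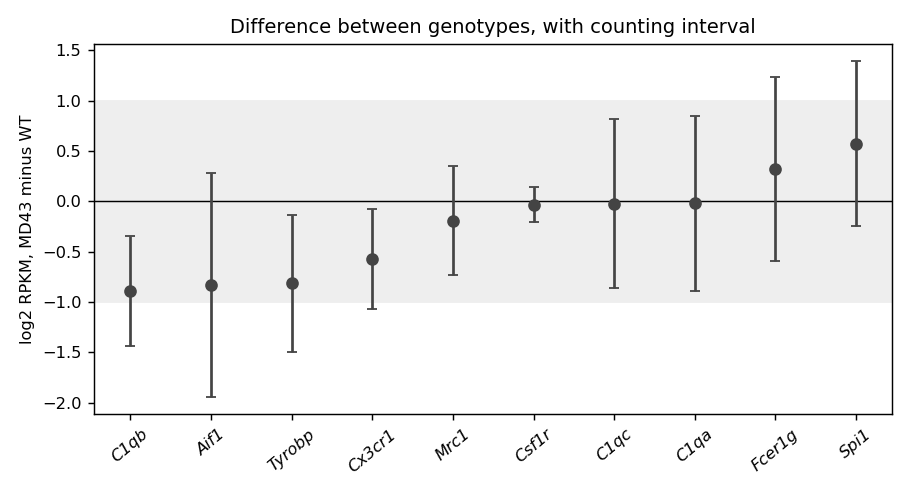
Log2 difference (MD43 minus WT) of each marker, sorted, with bars of 1.96 smallest counting standard errors, which leave out variation between embryos. All points lie within the grey band of 2-fold, and the bars of C1qb, Tyrobp and Cx3cr1 end below 0.

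In order of level per length, the markers of WT ran Csf1r, Tyrobp, C1qb, C1qa, Fcer1g, Cx3cr1, C1qc, Aif1, Mrc1 and Spi1. In WT the gap between C1qb and C1qa was the 1 of 9 neighbouring gaps larger than 1.96 counting errors. In MD43 the order was Csf1r, Tyrobp, C1qb, Fcer1g, C1qa, C1qc, Cx3cr1, Spi1, Mrc1 and Aif1. There the gaps between Csf1r and Tyrobp and between C1qa and C1qc were larger than 1.96 counting errors. Most neighbours could thus not be told apart, Tyrobp and C1qb in both genotypes included. These are the listed values. Less the reads that Hmgxb3 would place at even density, Csf1r stood at 0.59 in MD43, still above Tyrobp. In WT it stood at 0.78, below Tyrobp and C1qb. Both positions are as rough as the estimate of placed reads.

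How far the 2 embryos of a genotype differed is partly visible in the products of their reads. For C1qa in WT the product was 85, which with reads in both libraries means 5 and 17 reads or 1 and 85, so that the libraries were at least 3.40-fold apart. The MD43 product of C1qc was 184, for which the closest counts are 8 and 23. For Aif1 in MD43 the product of 33 allows 3 and 11 or 1 and 33. In contrast, the products of C1qb allow close counts, 20 and 27 in MD43 and 30 and 32 in WT, although wider splits are possible too. Over the 20 products of the 10 markers, the closest possible counts were at least 1.5-fold apart in 11, and up to 3.67-fold. These are reads before scaling. The depths of the single libraries are unknown, so that depth and biological spread cannot be told apart. The differences of C1qb, Tyrobp and Cx3cr1 were 1.85-, 1.76- and 1.48-fold.

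The marker differences were read against genes of similar depth. Past 1.5-fold, 3 of 10 markers were lower in MD43 (C1qb, Tyrobp and Aif1) and none was higher. Without Aif1, which failed the filter, this was 2 of 9. Over all filtered genes 6.44% were lower by this measure and 4.24% higher, but the differences of genes with few reads are wider. Among the 2320 filtered genes in the read range of the 9 markers other than Csf1r, 22.3% were lower and 18.5% higher past 1.5-fold, and 10.6% and 8.41% past 2-fold. Over the range of all 10 markers, 6392 genes, 5.62% and 3.55% were lower and higher past 2-fold. The counting interval lay below 0 for 3 of the 10 markers and above 0 for none, against 18.7% and 11.6% in the range of the 9. With 1 value per genotype no test of these shares was made.

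**Figure D4:**
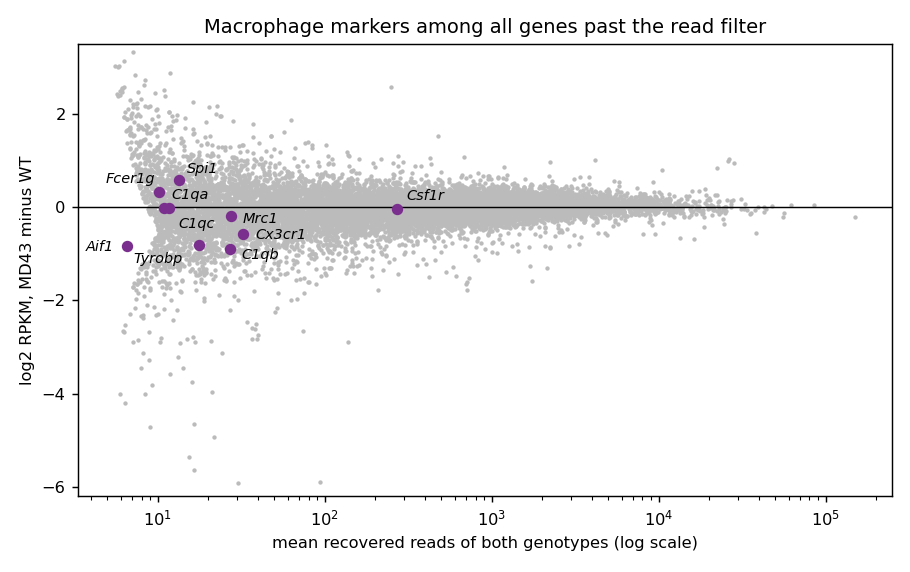
Log2 difference (MD43 minus WT) against the mean recovered reads of both genotypes on a log axis, for the 15381 genes past the filter (grey) and the 10 markers (purple). The markers other than Csf1r sit at the left, where grey points spread widest, and lie inside that spread.

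Summed over all 10 markers, there were 21.4 RPM in MD43 and 23.8 in WT, a log2 difference of -0.16 ± 0.07. Without Csf1r they were 7.33 and 9.45, a log2 difference of -0.37 ± 0.11. With Csf1r reduced by the rough estimate of reads placed by Hmgxb3, the sum was 16.0 and 19.3, a difference of -0.27 ± 0.08. Its error is again too small. All 3 sums were lower in MD43, by amounts that depend on how much weight Csf1r has.

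Other genes of macrophages did not share 1 direction. Of 20 general macrophage genes 15 passed the filter, 8 lower and 7 higher in MD43, with a median of -0.04. Among them Coro1a had 425 reads in MD43 against 314 in WT, with a difference of -0.04 ± 0.08, whereas the actin-bundling gene Lcp1 had 335 and 324 reads and a difference of -0.43 ± 0.08. Cyba, a subunit of the NADPH oxidase, had a difference of -0.27 ± 0.10, and the GTPase gene Rac2 -0.57 ± 0.27. The general blood cell gene Ptprc (CD45) had -5.51 log2 RPKM in MD43 and -4.81 in WT, a difference of -0.70 ± 0.46. Cd14 was the exception in size, with 20.5 reads in MD43 and 3.79 in WT and a difference of 1.96 ± 0.57, and of the WT libraries 1 had 16 reads and the other none.

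Genes that mark particular macrophages differed in direction between lists. Of 9 genes of border-associated or yolk sac macrophages, 4 passed the filter and all 4 were lower, with a median of -0.73. F13a1 had 32.9 reads in MD43 against 49.4 in WT, with a difference of -1.06 ± 0.23. Pf4, which platelets also express, had 39.5 and 53.8 reads and a difference of -0.92 ± 0.21. The others of the list past the filter were Folr2 at -0.54 ± 0.42 and Stab1 at -0.05 ± 0.07. Both overlap an opposite-strand gene that at even density would account for most of their reads. Without them the median was -0.99 and rests on F13a1 and Pf4 alone. Of 6 microglial genes 4 passed the filter, 2 lower and 2 higher. Tmem119 had a difference of 0.60 ± 0.11 and Slc2a5 of 0.72 ± 0.24, while Olfml3 had -0.10 ± 0.21. P2ry12, a defining receptor of microglia, had 3.46 and 4.24 reads and did not pass. Over 63 genes in these 6 lists of myeloid factors, adaptor partners, complement, general, microglial and border or yolk sac genes, 35 passed the filter, with 21 lower, 14 higher and a median of -0.10. Among these 35 genes, 2 lay below WT by a factor of 2 or more (Cebpb and F13a1), and 1 lay above it by that much (Cd14). Reads placed by Tmem189 at even density would exceed those of Cebpb. For comparison, the shares past 2-fold were 2.48% downwards and 1.64% upwards over all filtered genes. In the read range of the 9 markers other than Csf1r these shares were 10.6% and 8.41%. Some of the 35 genes had more reads than this range.

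Markers of other cells in the dissected piece are given beside these values. Of 11 monocyte or neutrophil genes 2 passed the filter, Mpo at -1.75 ± 0.46 and Prtn3 at -0.39 ± 0.22. Prtn3 overlaps the opposite-strand gene Plppr3, which at even density would account for more reads than Prtn3 had. No read was found for 6 of the 11, the monocyte receptor gene Ccr2 and the neutrophil granule genes Elane and Ltf among them, while the granule gene Mpo had 6.93 (MD43) and 16.7 (WT) reads and Prtn3 43.8 (MD43) and 41.3 (WT). The list summed to 2.73 RPM in MD43 and 4.18 in WT, and most of both sums was counted for Prtn3. Of 9 megakaryocyte or platelet genes 4 passed and all 4 were lower, with a median of -0.44, and the list summed to 9.24 and 11.7 RPM. Most of both sums was counted for Gp1bb, which overlaps Gm49601 on its own strand. The density of Gm49601 would place 85.4% of the Gp1bb reads in MD43 and 68.8% in WT. Of 6 lymphoid genes 1 passed, and the list summed to 0.784 and 0.439 RPM.

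All 9 red blood cell genes measured were higher in MD43, with a median of 0.98 and sums of 3897 RPM in MD43 and 2057 in WT. All 5 surface ectoderm genes were higher too, with a median of 0.70 and sums of 335 and 210. Of 10 endothelial genes 7 were lower and 3 higher, with a median of -0.08 and sums of 95.1 and 106. Facial mesenchyme genes had a median of 0.0078 over 9 genes, with sums of 627 and 635, and 5 neural genes had a median of 0.03, with sums of 978 and 972. Thus red cell and ectoderm markers differed in the direction opposite to the summed macrophage markers. The part of cell composition in the marker differences was not tested.

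**Figure D5:**
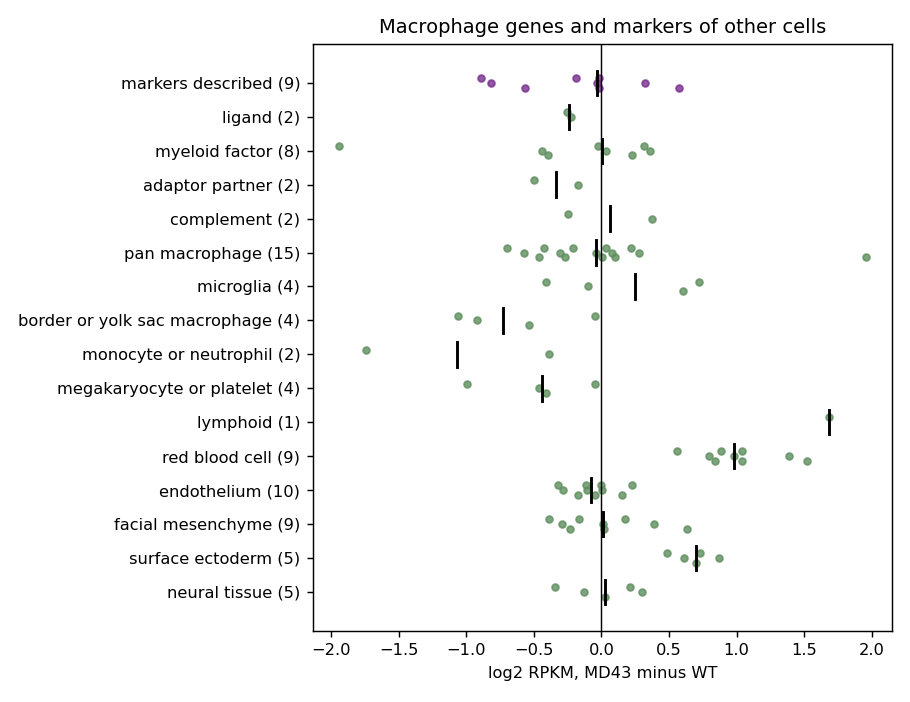
Log2 difference (MD43 minus WT) of each gene past the filter, by list, with the number of genes in brackets and the median as a black bar. The 9 macrophage markers (purple) have a median of -0.03, border or yolk sac genes -0.73 and red blood cell genes 0.98.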

How the data were processed

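RNA from snap-frozen FNPs was sequenced as stranded poly(A) libraries from 100 ng of total RNA, per the labels. Per the submitters' processing notes, reads were trimmed with Trim Galore 0.4.4 and mapped with HISAT2 2.0.5 to GRCm38.p6. The authors quantified them in SeqMonk and deposited log2 RPKM values, scaled by transcript length and by library size and merged to 1 column for each genotype. The authors also deposited a fold change, a mean and an FDR (q-value) from an edgeR-based test without the sex chromosomes. These hold their own comparison and were not used.

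Rows were joined to GENCODE M21, and 33101 of 33708 matched. Genes without reads, counted by the authors' software as 0.9 reads per library, fix the value of 1 read, and the square of a value relative to it is the product of the reads of both libraries. Of products under 1000, 99.9% were whole, 0.9 times whole or 0.81 within 0.005 in both genotypes. The recovery of read products was tested on simulated data, and the counting errors were not part of that test. Intervals cover counting error only. No test was run, since there was 1 value per genotype, and called means a fold of 2 or more.

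The markers and the 15 other lists (141 genes) were chosen with earlier results of these data known. Named genes were all 10 markers, the ligands and, of each list, up to 3 genes with most reads and up to 3 with the largest difference past the filter. Trem2, Fcgr3, P2ry12 and the genes without reads were named after their values were seen. Some genes that meet this rule are not reported here. Alternatives were pseudocounts of 0.1 and 1 RPKM, other filters, centrings, folds and summed genes. Those on overlapping genes, and the range of the 9 markers, were chosen after seeing the data. Python 3.11.15 with pandas 2.3.3 and numpy 2.4.6 was used.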

Additional observations from a re-analysis of the deposited data

How the results depend on the processing

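No paired analysis was possible because both libraries of a genotype share 1 column, and for the same reason no library could be left out. Centring on either median moved differences by at most 0.013. No marker changed direction or reached 2-fold under a pseudocount of 0.1 or 1 RPKM or either centring. This outcome was fixed in advance. A pseudocount only moves a difference towards 0, and the centring shifts were too small for either change. Of 157 recomputed values, 147 stayed within the counting interval of the reported value or, for a count, within 1.5 times. The exceptions follow. Without Csf1r the log2 difference of the summed markers was -0.37 in place of -0.16. At 1.5-fold, 2 markers past the filter were lower in place of 0. The median of general macrophage genes was -0.31 with a minimum of 50 reads. That of microglial genes was -0.26 with all listed genes, opposite in sign to 0.25 with the filter, and 0.60 without genes overlapped on the opposite strand. That of border or yolk sac genes was -0.21 with a pseudocount of 1 RPKM. Monocyte or neutrophil genes had medians of -0.24 with that pseudocount and -1.75 without Prtn3, and red blood cell genes 0.85 and 0.60 with pseudocounts of 0.1 and 1 RPKM. Few reads limit all markers except Csf1r, and variation between embryos is unknown.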
